A study of Gallus gallus with 12 samples.

Results

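The mitochondrial carrier family (SLC25) was examined in the livers and abdominal fats of normal chickens on a high-fat or a normal diet. Its members were chosen by name, as every gene whose symbol is SLC25A followed by a number, which gave 37 of the 18332 genes in the deposited tables. HN chickens were fed a high-fat diet (HFD) and NN chickens a normal diet, for 2 weeks. All were Xinghua birds, described in the study as purebred females without the dwarfing mutation that its other birds carried. Those dwarf birds are not analysed here. The labels give an age of 8 weeks. The study's methods describe birds of 8 weeks that were then fed the diets for 2 weeks before slaughter. Liver and abdominal fat were each sequenced from 3 HN and 3 NN birds, 12 libraries in all, with total RNA on the BGISEQ-500 platform. Expression is given in FPKM, the fragments assigned to a gene divided by its transcript length and by the size of the library, so that levels can be compared between genes.

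SLC25 proteins sit mainly in the inner mitochondrial membrane and move metabolites, nucleotides, cofactors and ions between the cytosol and the matrix, usually by exchange. In birds the liver is the main site of fatty acid synthesis, for which citrate must leave the mitochondrion, while fat oxidation needs acylcarnitines to enter it. Abdominal fat mainly stores lipid made in the liver. The members were grouped by the substrate they are known to carry, largely from work on mammals and yeast, in 11 groups.

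Tissue identity was checked with marker lists. The 8 hepatocyte markers summed to 38561 to 72518 FPKM in livers and 28.4 to 125 FPKM in fats, and the 8 adipocyte markers to 114 to 275 FPKM in livers and 17882 to 24138 FPKM in fats. Erythroid markers (7 found) summed to 68.4 to 662 FPKM in livers and 223 to 1317 FPKM in fats, leukocyte markers (5 found) to 558 to 1277 FPKM in livers and 1792 to 3505 FPKM in fats, and endothelial markers (5) to 29.0 to 72.2 FPKM in livers and 412 to 724 FPKM in fats. Fibroblast markers (5) summed to 118 to 187 FPKM in livers and 3887 to 9731 FPKM in fats, and skeletal muscle markers (8 found, 1 of them at 0 in all libraries) to 0.37 to 2.23 FPKM in livers and 13.3 to 39.9 FPKM in fats. Exocrine pancreas markers stayed at 2.33 FPKM or below in sum. In bulk tissue, fewer cells of a type and less RNA per cell cannot be told apart. The sequencing depth of the libraries was not given in the sources used here, so no counting error is attached to the values, and those near 1 FPKM are the least certain.

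The family as a whole was more abundant in liver. Summed FPKM of the 37 members was 3279, 2567 and 2682 in HN livers and 2999.6, 3105 and 2645 in NN livers, against 1304, 1357 and 1364 in HN fats and 1353, 1380.5 and 1362 in NN fats. Every liver thus lay above every fat, and the HN and NN birds overlapped in both tissues. The family took 0.418% to 0.544% of all summed FPKM in livers and 0.264% to 0.292% in fats. SLC25A1, SLC25A3, SLC25A5 and SLC25A6 together held 63.4% to 71.9% of the family sum in each library. Between 33 and 36 members reached 1 FPKM in a library. SLC25A40, a glutathione carrier in mammals, was listed at 0.05 FPKM or below in all 12 libraries and entered no test.

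**Figure D1:**
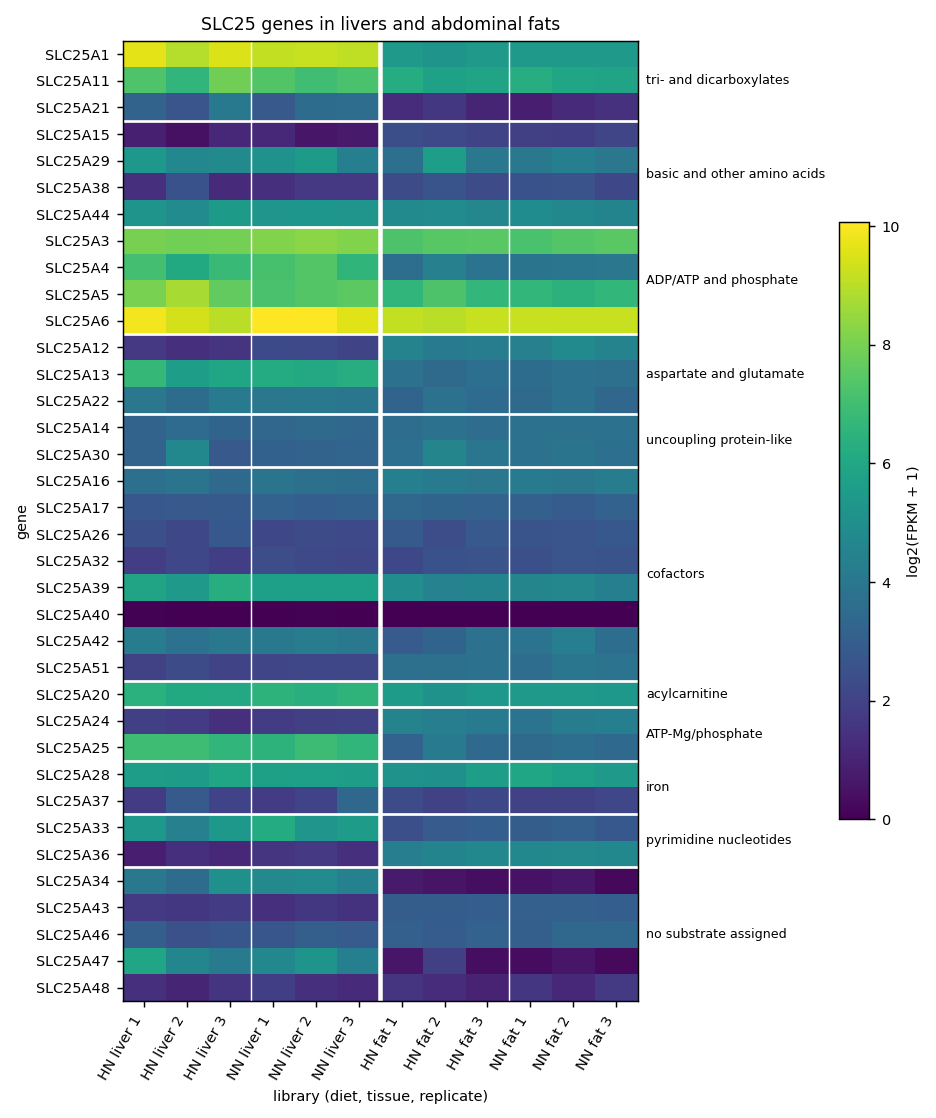
FPKM of 36 SLC25 genes (rows, ordered by substrate group) in the 12 libraries (columns), as log2(FPKM + 1) in colour. SLC25A6 is bright throughout, SLC25A1 is bright in the 6 livers only, and SLC25A12, SLC25A24 and SLC25A36 are brighter in fats than in livers.

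Liver and fat were compared within each diet, which asks which carriers belong to which tissue. Fold changes are on the log2(FPKM + 1) scale, liver over fat or HN over NN, with their SE, and they understate changes of genes near 1 FPKM. A gene was called at a Benjamini-Hochberg adjusted p under 0.05 over all genes tested with limma. The liver and fat libraries were treated as independent in these fits, although they may come from the same birds. Of 36 members tested in HN chickens, 14 were higher in liver and 9 lower, against 14.8% and 50.7% of all 12511 genes tested. In NN chickens 17 were higher in liver and 13 lower, against 16.6% and 59.4% of 12492 genes. The median member had a log2 fold change of 0.35 in HN and 0.28 in NN chickens, and the median of all genes tested was -0.64 in HN and -0.65 in NN chickens. A total of 13 members were called higher in liver in both diets (13.5% of genes were): SLC25A1, SLC25A3, SLC25A4, SLC25A5, SLC25A11, SLC25A13, SLC25A20, SLC25A21, SLC25A25, SLC25A33, SLC25A34, SLC25A39 and SLC25A47. The 8 called lower in liver in both diets (49.3% of genes were) included SLC25A12, SLC25A15, SLC25A16, SLC25A24, SLC25A36, SLC25A43 and SLC25A51. SLC25A34 in both diets and SLC25A47 in NN chickens averaged under 1 FPKM in fat, and SLC25A15 in both diets under 1 FPKM in liver, so that they passed the filter only through the tissue in which they are high. Without them 13 members were higher and 8 lower in HN chickens, and 15 higher and 12 lower in NN chickens. No share of all genes is given here for these reduced counts. The 13 still hold SLC25A47, whose average in HN fats passed 1 FPKM only through HN fat 2. That library had 2.78 FPKM, against 0.52 FPKM in HN fat 1 and 0.29 FPKM in HN fat 3. The lists called in both diets hold SLC25A34, SLC25A47 and SLC25A15 and were not counted again without them.

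The general shift towards fat depends on scaling. With median-ratio scaling the median of all genes moved to -0.12 in HN and -0.06 in NN chickens, and with quantile normalization to -0.06 and -0.07. With median-ratio scaling 18 members were called higher and 7 lower in HN chickens, against 25.7% and 32.0% of all genes, and 20 higher and 7 lower in NN chickens, against 30.4% and 34.3% of genes. With quantile normalization 19 were higher and 5 lower in HN chickens, against 25.7% and 30.1% of genes, and 23 higher and 6 lower in NN chickens, against 29.6% and 34.8% of genes. With liver and fat of 1 number as a replicate block, 15 were higher and 10 lower in HN chickens, against 15.6% and 52.7% of genes, and 17 higher and 13 lower in NN chickens, against 17% and 60.4% of genes. In both diets and under all 3 scalings, 12 members were higher in liver (13.2% of genes were) and 5 were lower (24.5% of genes were). The 12 are the list above without SLC25A3, and the 5 are SLC25A12, SLC25A24, SLC25A36, SLC25A43 and SLC25A51. The 12 include SLC25A34 and SLC25A47, which passed the filter only through liver, SLC25A34 in both diets and SLC25A47 in NN chickens. Genes of mitochondrial content, such as subunits of the respiratory chain, were set beside the carriers. All of those listed are nuclear genes. In the reported fits 13 of 17 were higher in liver and 0 lower in each diet, with a median of 0.98 in HN and 0.74 in NN chickens. Of all genes, 14.8% were higher and 50.7% lower in HN chickens, and 16.6% higher and 59.4% lower in NN chickens.

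**Figure D2:**
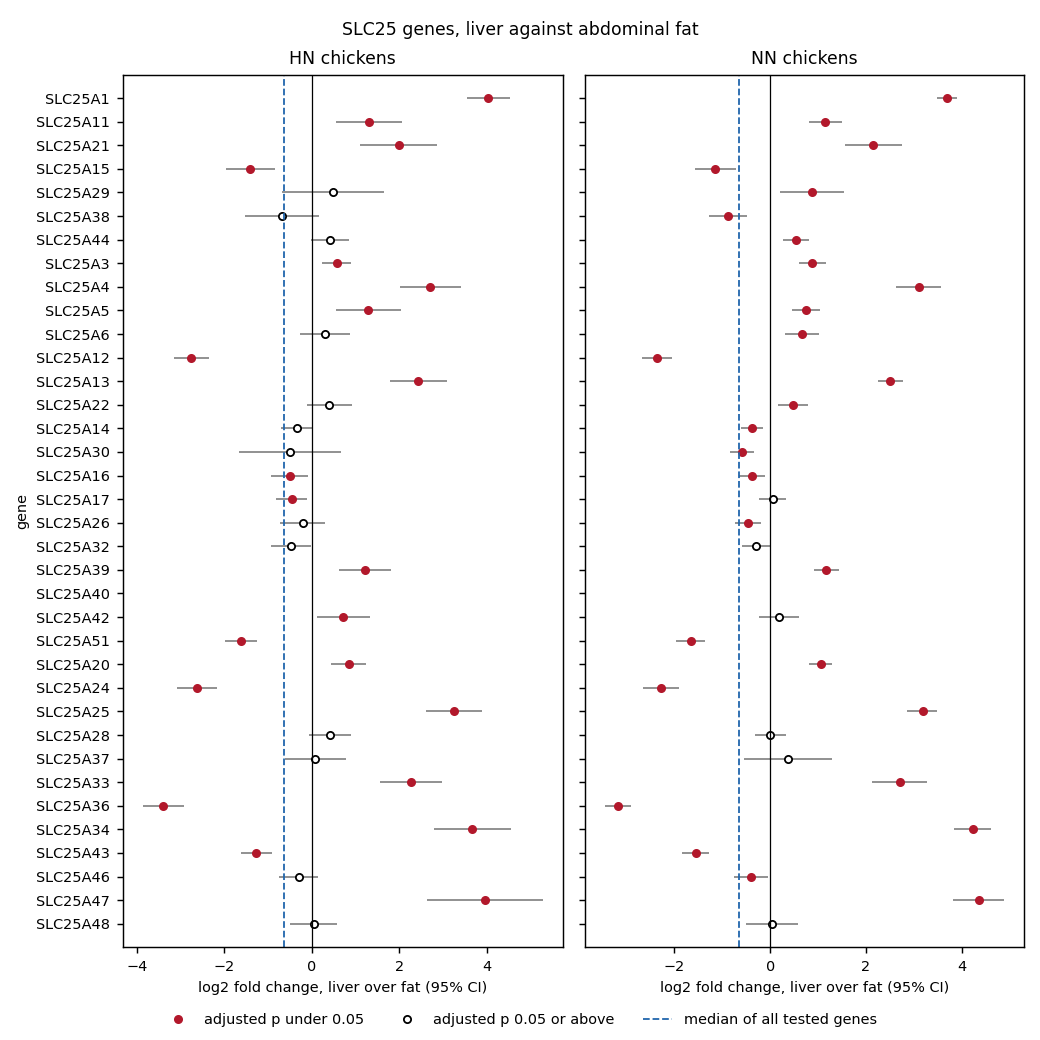
Log2 fold change of liver over fat for the tested SLC25 genes described here in HN (left) and NN (right) chickens, with 95% confidence intervals from limma on log2(FPKM + 1) and 3 birds per group. Filled points passed an adjusted p of 0.05, and the dashed line marks the median of all tested genes, -0.64 in HN and -0.65 in NN chickens, so that most carriers lie to its right.

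HN and NN birds were compared within each tissue, which asks whether the HFD changed the carriers. No member was called in liver (0 of 35, against 0.00% of 11278 genes) or in fat (0 of 34, against 0.00807% of 12394 genes, 1 gene), and none for the diet by tissue interaction (0 of 36, against 0.00% of 12544 genes). At an unadjusted limma p under 0.05 there were 2 members in liver (SLC25A5 and SLC25A12), or 5.71% of those tested against 12% of all genes, 0 members in fat against 4.68% of genes, and 1 for the interaction (SLC25A17), or 2.78% against 4.54%. The HN and NN values did not overlap for 4 members in liver (11.4%, against 21.1% of genes) and 1 in fat (2.94%, against 10.3% of genes). The median log2 fold change of the members was -0.08 in liver and -0.03 in fat, and that of all genes -0.06 in liver and -0.07 in fat. At the unadjusted threshold and for non-overlap, the members' share was below that of all genes in each tissue. These shares rest on counts of only 0 to 4 members. With 3 birds against 3, the smallest p an exact permutation test can give is 0.1, which every non-overlapping member has.

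**Figure D3:**
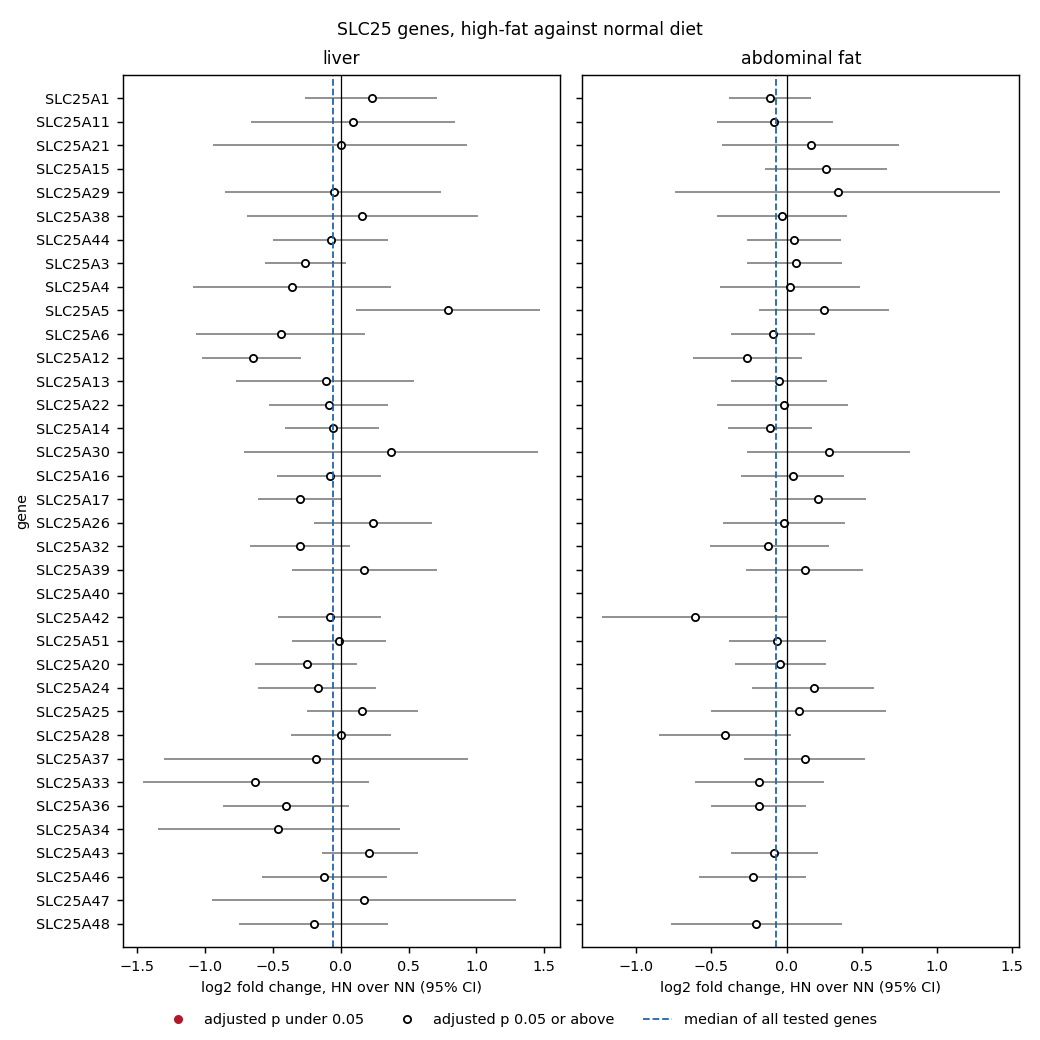
Log2 fold change of HN over NN for the tested SLC25 genes described here in liver (left) and abdominal fat (right), with 95% confidence intervals from limma on log2(FPKM + 1), 3 birds per group, and the median of all genes dashed. All points are open, none passing an adjusted p of 0.05, and SLC25A5 and SLC25A12 in liver are the intervals that exclude 0.

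Among the carriers of tri- and dicarboxylates, all 3 members rose in liver over fat in both diets. SLC25A1, the citrate carrier that supplies cytosolic citrate for fatty acid and sterol synthesis, was at 800.5, 497 and 732 FPKM in HN livers and 559, 590.3 and 553 FPKM in NN livers, against 42.6, 35.7 and 40.9 FPKM in HN fats and 42.99, 42.3 and 42.8 FPKM in NN fats. SLC25A1 had a liver over fat value of 4.03 ± 0.21 in HN chickens (adjusted p = 6.6e-06) and 3.70 ± 0.09 in NN chickens (adjusted p = 8.7e-08). Mean FPKM was 15.1-fold higher over the 6 livers than over the 6 fats, and the fats differed from each other by little. Between diets the values overlapped in liver, since HN bird 2 lay below and HN birds 1 and 3 above all NN birds. For SLC25A1, HN over NN was 0.23 ± 0.20 in liver (adjusted p = 0.663) and -0.11 ± 0.11 in fat (adjusted p = 0.824).

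Of the listed genes of citrate export and fatty acid synthesis, none was called by diet in liver. ATP citrate lyase (ACLY), which splits cytosolic citrate, was at 215, 212 and 97.4 FPKM in HN livers, against 77.5, 106 and 91.5 FPKM in NN livers, with a log2 fold change of 0.85. Fatty acid synthase (FASN) was at 165, 83.3 and 25.2 FPKM in HN livers, against 14.4, 12.8 and 16.2 FPKM in NN livers (log2 fold change 2.22). Citrate synthase (CS), which makes citrate in the matrix, was at 63.0, 45.7 and 51.1 FPKM in HN livers, against 33.8, 30.9 and 32.7 FPKM in NN livers (0.69). FASN and CS were higher in every HN than in every NN liver, and ACLY overlapped in HN bird 3. Of the 7 genes of citrate export and fatty acid synthesis listed, 5 did not overlap between diets in liver, all higher in HN livers, against 21.1% of all genes. The 7 had a median log2 fold change of 1.31, and 6 had an unadjusted limma p under 0.05, against 12% of all genes. The list was chosen with earlier results of these data known, so these counts are a description only. None of the 7 was called, with adjusted p from 0.392 upward.

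SLC25A11, the 2-oxoglutarate/malate carrier of the malate-aspartate shuttle, was the most abundant member of this group in fat, at 154, 98.1 and 238 FPKM in HN livers and 162, 126 and 145 FPKM in NN livers, against 73.5, 53.6 and 58.2 FPKM in HN fats and 76.1, 61.8 and 57.2 FPKM in NN fats. SLC25A11 had a liver over fat value of 1.31 ± 0.32 in HN chickens (adjusted p = 0.00885) and 1.14 ± 0.15 in NN chickens (adjusted p = 2.6e-04). HN liver 3 held the highest value and HN liver 2 the lowest of the livers, so that the diets overlapped. For SLC25A11, HN over NN was 0.09 ± 0.32 in liver (adjusted p = 0.916) and -0.08 ± 0.17 in fat (adjusted p = 0.904). SLC25A21, which carries 2-oxodicarboxylates from lysine breakdown, was at 5.24 to 15.9 FPKM in livers and 0.82 to 2.14 FPKM in fats. SLC25A21 had a liver over fat value of 1.99 ± 0.37 in HN chickens (adjusted p = 0.00263) and 2.15 ± 0.25 in NN chickens (adjusted p = 1.7e-04).

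The aspartate and glutamate carriers showed opposite tissue preferences. SLC25A13 (citrin), the liver form of the calcium-regulated aspartate/glutamate carrier in mammals, was at 102, 47.95 and 58.9 FPKM in HN livers and 72.4, 66.8 and 76.3 FPKM in NN livers, against 12.4, 10.04 and 11.8 FPKM in HN fats and 10.7, 12.6 and 11.98 FPKM in NN fats. SLC25A12 (aralar), the form of muscle and brain in mammals, was at 2.2, 1.57 and 1.97 FPKM in HN livers and 3.83, 3.65 and 3.23 FPKM in NN livers, against 21.4, 16.9 and 17.9 FPKM in HN fats and 19.9, 26.3 and 21.7 FPKM in NN fats. SLC25A13 was thus high in every liver, and SLC25A12 in every fat, with no overlap between tissues for either gene. SLC25A13 had a liver over fat value of 2.44 ± 0.28 in HN chickens (adjusted p = 2.6e-04) and 2.51 ± 0.11 in NN chickens (adjusted p = 1.1e-06). SLC25A12 had a liver over fat value of -2.76 ± 0.17 in HN chickens (adjusted p = 1.4e-05) and -2.36 ± 0.13 in NN chickens (adjusted p = 4.0e-06). Both carriers serve the malate-aspartate shuttle. Its 4 listed enzymes (MDH1, MDH2, GOT1 and GOT2) were all called higher in liver in both diets, as were 13.5% of all genes. Their median was 1.37 in HN and 1.42 in NN chickens. SLC25A22, a glutamate carrier, was at 10.8 to 17.1 FPKM in livers and 8.49 to 12.7 FPKM in fats, and was called higher in liver only in NN chickens (0.47 ± 0.13, adjusted p = 0.0138, against 0.40 ± 0.22, adjusted p = 0.149 in HN chickens). In HN chickens it was called without HN liver 2 (0.58, adjusted p = 0.0481), with median-ratio scaling (0.96, adjusted p = 0.00765) and with quantile normalization (1.04, adjusted p = 0.00592). Its difference between diets was -0.07 ± 0.26 (adjusted p = 0.998).

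SLC25A12 had the smallest unadjusted p of the family for diet in liver. All 3 HN livers (1.57 to 2.2 FPKM) lay below all 3 NN livers (3.23 to 3.83 FPKM), a log2 fold change of -0.65 ± 0.15 with an unadjusted limma p of 0.00407 and an adjusted p of 0.392. In fat the HN birds, at 16.9 to 21.4 FPKM, overlapped the NN birds, at 19.9 to 26.3 FPKM, with -0.26 ± 0.15 (adjusted p = 0.799). The interaction was -0.39 ± 0.21 (adjusted p = 0.998). SLC25A12 overlaps a neighbouring gene in the RefSeq annotation and is near the 1 FPKM limit in liver.

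The ADP/ATP translocases exchange matrix ATP for cytosolic ADP, and SLC25A3 brings in the phosphate for ATP synthase. SLC25A6, translocase 3, was the most abundant member of the family in fat and had the highest mean in liver, at 956, 675 and 517 FPKM in HN livers and 1042, 1069.7 and 755 FPKM in NN livers, against 564, 521 and 603 FPKM in HN fats and 593, 598 and 599 FPKM in NN fats. SLC25A6 had a liver over fat value of 0.30 ± 0.24 in HN chickens (adjusted p = 0.296) and 0.66 ± 0.15 in NN chickens (adjusted p = 0.00511). With median-ratio scaling SLC25A6 was called in HN chickens too (0.91, adjusted p = 0.0195). It was not called there with quantile normalization (0.24, adjusted p = 0.431) or the replicate block (0.30, adjusted p = 0.298). For SLC25A6, HN over NN was -0.44 ± 0.26 in liver (adjusted p = 0.519) and -0.09 ± 0.12 in fat (adjusted p = 0.854). SLC25A4, translocase 1, which is the heart and skeletal muscle form in mammals, was at 132, 68.9 and 111 FPKM in HN livers and 141, 164 and 93.8 FPKM in NN livers, against 11.4, 19.8 and 13.4 FPKM in HN fats and 13.5, 14.6 and 14.7 FPKM in NN fats. SLC25A4 had a liver over fat value of 2.71 ± 0.30 in HN chickens (adjusted p = 2.1e-04) and 3.10 ± 0.20 in NN chickens (adjusted p = 7.6e-06). Its mean was 8.13-fold higher in livers than in fats, while that of SLC25A6 was 1.44-fold higher.

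SLC25A5, translocase 2, linked to proliferating cells in mammals, was at 261, 428 and 199.9 FPKM in HN livers and 144, 163 and 183 FPKM in NN livers, against 98.6, 152 and 100.3 FPKM in HN fats and 100.02, 88.7 and 100.4 FPKM in NN fats. SLC25A5 had a liver over fat value of 1.29 ± 0.31 in HN chickens (adjusted p = 0.00857) and 0.75 ± 0.12 in NN chickens (adjusted p = 9.1e-04). Every HN liver was above every NN liver, with a log2 fold change of 0.79 ± 0.28, an unadjusted limma p of 0.0284 and an adjusted p of 0.399. The value rests in part on HN liver 2, the highest of the 12 libraries, and without it the log2 fold change was 0.49 (adjusted p = 0.469). In fat it was 0.25 ± 0.18 (adjusted p = 0.799), and 0.05 without HN fat 2. The 5 proliferation markers had sums of 8.01 to 49.8 FPKM in HN livers against 8.5 to 13.8 FPKM in NN livers. In fats the sums were 20.1 to 50.6 FPKM in HN against 13.7 to 20.9 FPKM in NN birds. Among livers each of the 5 was highest in the HN bird with the lowest SLC25A5 of the HN livers, 199.9 FPKM. Among fats each was highest in the HN bird with the lowest SLC25A5 of the HN fats, 98.6 FPKM. In HN liver 2, TOP2A and CDK1 were above every NN liver, CCNB2 and BIRC5 inside the NN range and MKI67 below it. In HN fat 2 each was above every NN fat. The part of these markers in the SLC25A5 values was not tested. SLC25A5 and SLC25A6 are close paralogs, and RefSeq lists SLC25A5 as a synonym of SLC25A6, so the split of reads between them is uncertain.

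SLC25A3, the phosphate carrier, was at 253, 244 and 249.5 FPKM in HN livers and 288, 320.5 and 287 FPKM in NN livers, against 152, 175 and 177 FPKM in HN fats and 142, 165 and 179.7 FPKM in NN fats. SLC25A3 had a liver over fat value of 0.57 ± 0.14 in HN chickens (adjusted p = 0.00886) and 0.88 ± 0.12 in NN chickens (adjusted p = 3.8e-04). With quantile normalization the value in HN chickens was 0.19 (adjusted p = 0.33), and the call was lost. Its HN livers were closely grouped, within 244 to 253 FPKM, and all below the NN livers. For SLC25A3, HN over NN was -0.26 ± 0.13 in liver (adjusted p = 0.447) and 0.06 ± 0.13 in fat (adjusted p = 0.912).

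The calcium-regulated ATP-Mg/phosphate carriers adjust the adenine nucleotide pool of the matrix. SLC25A25 was the liver member, at 122, 123 and 97.6 FPKM in HN livers and 89.5, 119.7 and 98.2 FPKM in NN livers, against 7.91, 16.7 and 9.94 FPKM in HN fats and 10.2, 11.3 and 9.72 FPKM in NN fats. SLC25A24 was the fat member, at 2.72, 2.46 and 1.64 FPKM in HN livers and 2.33, 2.76 and 2.9 FPKM in NN livers, against 21.6, 18.9 and 16.8 FPKM in HN fats and 13.3, 18.1 and 19.2 FPKM in NN fats. The tissues did not overlap for either gene, and the means differed 9.89-fold in favour of liver for SLC25A25 and 7.29-fold in favour of fat for SLC25A24. SLC25A25 had a liver over fat value of 3.26 ± 0.27 in HN chickens (adjusted p = 5.4e-05) and 3.18 ± 0.13 in NN chickens (adjusted p = 1.0e-06). SLC25A24 had a liver over fat value of -2.63 ± 0.19 in HN chickens (adjusted p = 3.1e-05) and -2.28 ± 0.16 in NN chickens (adjusted p = 1.1e-05). Neither gene separated the diets in a tissue, with log2 fold changes of HN over NN between -0.17 and 0.18.

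SLC25A33 and SLC25A36 carry pyrimidine nucleotides, which mitochondria need for their own DNA and RNA. SLC25A33 was at 39.95, 19.96 and 39.8 FPKM in HN livers and 73.1, 36.9 and 44.9 FPKM in NN livers, against 4.5, 6.32 and 6.96 FPKM in HN fats and 6.87, 7.59 and 5.89 FPKM in NN fats. SLC25A36 was at 0.82, 1.61 and 1.19 FPKM in HN livers and 1.95, 2.16 and 1.58 FPKM in NN livers, against 18.9, 22.5 and 25.2 FPKM in HN fats and 24.7, 25.7 and 25.1 FPKM in NN fats. SLC25A33 was high in livers and SLC25A36 in fats, and SLC25A36 had the lowest liver over fat value of the family. SLC25A33 had a liver over fat value of 2.26 ± 0.30 in HN chickens (adjusted p = 5.3e-04) and 2.70 ± 0.24 in NN chickens (adjusted p = 4.1e-05). SLC25A36 had a liver over fat value of -3.40 ± 0.20 in HN chickens (adjusted p = 1.1e-05) and -3.18 ± 0.12 in NN chickens (adjusted p = 5.1e-07). For SLC25A33, HN over NN was -0.63 ± 0.35 in liver (adjusted p = 0.498) and -0.18 ± 0.19 in fat (adjusted p = 0.818). For SLC25A36, HN over NN was -0.40 ± 0.19 in liver (adjusted p = 0.439) and -0.18 ± 0.13 in fat (adjusted p = 0.799). NN liver 1 held the highest SLC25A33 value, 1.63 times the next liver, and HN liver 2 the lowest.

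SLC25A20, the carnitine/acylcarnitine carrier that brings long-chain acyl groups into the matrix for beta-oxidation, was at 85.97, 68.1 and 66.2 FPKM in HN livers and 91.2, 79.1 and 91.6 FPKM in NN livers, against 45.8, 35.4 and 40.5 FPKM in HN fats and 41.4, 42.5 and 40.4 FPKM in NN fats. SLC25A20 had a liver over fat value of 0.84 ± 0.17 in HN chickens (adjusted p = 0.00413) and 1.05 ± 0.10 in NN chickens (adjusted p = 6.0e-05). Between diets, HN liver 1 lay inside the range of the NN livers. For SLC25A20, HN over NN was -0.25 ± 0.16 in liver (adjusted p = 0.539) and -0.04 ± 0.13 in fat (adjusted p = 0.944). The enzyme before it in the pathway, CPT1A, which makes long-chain acylcarnitines on the outer membrane, was at 150.1, 119.9 and 142 FPKM in HN livers, against 249, 228 and 235 FPKM in NN livers. CPT1A did not overlap between the diets, with a log2 fold change of -0.79 and an adjusted limma p of 0.349. ACADL, an acyl-CoA dehydrogenase of the same list, was at 430.4, 402 and 399 FPKM in HN livers, against 372, 368 and 396 FPKM in NN livers, and so did not overlap in the other direction (0.12, adjusted p = 0.715). The 5 acylcarnitine and beta-oxidation genes found were all called higher in liver than in fat in both diets, as were 13.5% of all genes. Their median was 2.18 in HN and 2.51 in NN chickens, against 0.84 and 1.05 for SLC25A20.

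Among the 9 cofactor carriers, SLC25A39, a glutathione carrier, was the most abundant, at 58.5, 41.8 and 76.9 FPKM in HN livers and 50.8, 50.4 and 50.9 FPKM in NN livers, against 29.9, 21.01 and 22.04 FPKM in HN fats and 22.8, 23.98 and 19.4 FPKM in NN fats. SLC25A39 had a liver over fat value of 1.22 ± 0.25 in HN chickens (adjusted p = 0.00434) and 1.17 ± 0.11 in NN chickens (adjusted p = 5.1e-05). For SLC25A39, HN over NN was 0.17 ± 0.23 in liver (adjusted p = 0.764) and 0.12 ± 0.17 in fat (adjusted p = 0.854). SLC25A51, the NAD carrier, was lower in every liver than in every fat, at 2.95, 3.88 and 3.14 FPKM in HN livers and 3.25, 3.36 and 3.43 FPKM in NN livers, against 12.1, 12.04 and 12.5 FPKM in HN fats and 10.95, 14.4 and 13.1 FPKM in NN fats. SLC25A51 had a liver over fat value of -1.62 ± 0.15 in HN chickens (adjusted p = 1.1e-04) and -1.66 ± 0.13 in NN chickens (adjusted p = 1.8e-05). The HN and NN birds had nearly the same SLC25A51 mean in liver, 3.32 ± 0.491 and 3.35 ± 0.0907 FPKM (SD, n = 3 each).

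SLC25A17, which carries coenzyme A and related cofactors in the peroxisome, was at 5.65, 6.01 and 6.21 FPKM in HN livers and 8.06, 6.95 and 7.75 FPKM in NN livers, against 9.32, 8.6 and 7.88 FPKM in HN fats and 7.47, 6.59 and 7.85 FPKM in NN fats. All HN livers were below all NN livers, and all HN fats above all NN fats, although HN fat 3 (7.88 FPKM) and NN fat 3 (7.85 FPKM) nearly touch. For SLC25A17, HN over NN was -0.30 ± 0.13 in liver (adjusted p = 0.417) and 0.21 ± 0.14 in fat (adjusted p = 0.799). Such separation in opposite directions was found in 45 of 12544 genes (0.359%) and in 1 member. The interaction was -0.51 ± 0.16 with an unadjusted limma p of 0.00965 and an adjusted p of 0.998. SLC25A17 was called lower in liver than in fat in HN chickens only (-0.46 ± 0.15, adjusted p = 0.0257), and this call was lost without HN liver 1 (-0.43, adjusted p = 0.0707), HN fat 1 (-0.41, adjusted p = 0.0984) or HN fat 2 (-0.46, adjusted p = 0.0599), while median-ratio scaling and quantile normalization gave 0.07 and 0.28. In NN chickens, where it was not called (0.05 ± 0.12, adjusted p = 0.714), those scalings gave calls of 0.64 (adjusted p = 0.00287) and 0.76 (adjusted p = 0.00185).

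SLC25A42, a coenzyme A carrier, was at 17.96, 12.8 and 15.5 FPKM in HN livers and 15.6, 17.7 and 15.5 FPKM in NN livers, against 6.46, 8.45 and 12.8 FPKM in HN fats and 13.2, 18.7 and 11.5 FPKM in NN fats. HN fats 1 and 2 were the lowest fats and NN fat 2 the highest, with HN fat 3 inside the NN range. For SLC25A42, HN over NN was -0.08 ± 0.16 in liver (adjusted p = 0.85) and -0.61 ± 0.27 in fat (adjusted p = 0.799). Its call as higher in HN livers than in HN fats (0.72 ± 0.26, adjusted p = 0.0411) was lost without HN liver 1 (0.61, adjusted p = 0.115), HN liver 3 (0.71, adjusted p = 0.0869), HN fat 1 (0.51, adjusted p = 0.131) or HN fat 2 (0.68, adjusted p = 0.1). In NN chickens it was 0.18 ± 0.18 (adjusted p = 0.377), and it was called without NN fat 2 (0.37, adjusted p = 0.0418), with median-ratio scaling (0.81, adjusted p = 0.00317) and with quantile normalization (0.76, adjusted p = 0.00648).

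Of the other cofactor carriers, SLC25A16, linked to coenzyme A, was at 9.75 to 13.8 FPKM in livers and 14.8 to 19.4 FPKM in fats and was called lower in liver in HN (-0.51 ± 0.18, adjusted p = 0.0422) and NN chickens (-0.38 ± 0.12, adjusted p = 0.0195), whereas median-ratio scaling gave 0.06 in HN and 0.25 in NN chickens and quantile normalization 0.07 and 0.21. The SLC25A16 call in HN chickens was lost without HN liver 1 (-0.52, adjusted p = 0.0784), HN liver 3 (-0.39, adjusted p = 0.109), HN fat 1 (-0.42, adjusted p = 0.142) or HN fat 2 (-0.50, adjusted p = 0.097), and that in NN chickens without NN liver 2 (-0.37, adjusted p = 0.0579), NN liver 3 (-0.33, adjusted p = 0.0619) or NN fat 3 (-0.32, adjusted p = 0.0569). SLC25A26, the S-adenosylmethionine carrier, was at 3.48 to 5.82 FPKM in livers and 4.21 to 6.14 FPKM in fats, and SLC25A32, the folate carrier, at 2.53 to 4.13 FPKM in livers and 3.5 to 5.22 FPKM in fats. SLC25A26 was called lower in liver in NN chickens alone (-0.46 ± 0.11, adjusted p = 0.0077), with an adjusted p of 0.998 for the difference between diets, but median-ratio scaling gave 0.09 and quantile normalization 0.30, and 0.58 in HN chickens (adjusted p = 0.0302). SLC25A32 was not called in either diet, at -0.48 ± 0.19 in HN chickens (adjusted p = 0.0615) and -0.30 ± 0.12 in NN chickens (adjusted p = 0.0567, and 0.45 with an adjusted p of 0.00985 under quantile normalization). It was called in HN chickens with liver and fat of 1 number treated as 1 bird (-0.48, adjusted p = 0.046), without HN liver 2 (-0.58, adjusted p = 0.0476), without HN fat 1 (-0.61, adjusted p = 0.047) and with all 12 libraries in one fit (-0.48, adjusted p = 0.014).

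Carriers of basic and other amino acids were mixed. SLC25A44, which carries branched-chain amino acids in brown fat of mice, had the highest mean of this group in both tissues, at 36.2, 28.2 and 43.4 FPKM in HN livers and 36.7, 38.2 and 36.98 FPKM in NN livers, against 26.1, 28.03 and 24.5 FPKM in HN fats and 28.6, 25 and 22.5 FPKM in NN fats. SLC25A44 had a liver over fat value of 0.42 ± 0.19 in HN chickens (adjusted p = 0.0815) and 0.54 ± 0.11 in NN chickens (adjusted p = 0.00343). In HN chickens it was called without HN liver 2 (0.58, adjusted p = 0.0219), with median-ratio scaling (1.01, adjusted p = 0.0021), with quantile normalization (0.73, adjusted p = 0.0085) and with all 12 libraries in one fit (0.42, adjusted p = 0.0261). For SLC25A44, HN over NN was -0.07 ± 0.18 in liver (adjusted p = 0.882) and 0.05 ± 0.13 in fat (adjusted p = 0.924). SLC25A15, the ornithine/citrulline exchanger of the urea cycle in mammals, was at 0.84, 0.36 and 1.21 FPKM in HN livers and 1.17, 0.51 and 0.65 FPKM in NN livers, against 4.33, 3.68 and 3.13 FPKM in HN fats and 2.8, 2.64 and 3.31 FPKM in NN fats. SLC25A15 had a liver over fat value of -1.41 ± 0.24 in HN chickens (adjusted p = 0.00159) and -1.15 ± 0.18 in NN chickens (adjusted p = 8.0e-04). With quantile normalization both calls were lost, at -0.67 in HN (adjusted p = 0.0504) and -0.50 in NN chickens (adjusted p = 0.0594). Birds excrete nitrogen mainly as uric acid, and any link of this to the SLC25A15 values was not tested. SLC25A15 was at 0.36 to 1.21 FPKM in the 6 livers, where it entered no test of HN against NN. Its liver over fat and interaction values were tested only because its fat values passed the filter. SLC25A38, a glycine carrier needed for haem synthesis, was at 1.30 to 4.85 FPKM in livers and 3.51 to 5.10 FPKM in fats and was called lower in liver in NN chickens alone (-0.88 ± 0.17, adjusted p = 0.00225), against -0.69 ± 0.36 in HN chickens (adjusted p = 0.129), with an adjusted p of 0.998 for the difference. Without HN liver 2 the HN value was -1.10 (adjusted p = 0.0044), and in NN chickens median-ratio scaling gave -0.38 (adjusted p = 0.0744) and quantile normalization -0.14 (adjusted p = 0.461).

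SLC25A29, a carrier of basic amino acids, was at 40.4, 24.7 and 26.97 FPKM in HN livers and 35.3, 44.3 and 19.2 FPKM in NN livers, against 12.2, 49.3 and 15.3 FPKM in HN fats and 15.5, 19.4 and 14.9 FPKM in NN fats. HN fat 2 was 2.54 times the next fat and above every liver. SLC25A29 had a liver over fat value of 0.48 ± 0.49 in HN chickens (adjusted p = 0.417) and 0.88 ± 0.29 in NN chickens (adjusted p = 0.025). Without HN fat 2 the value in HN chickens was 1.08 (adjusted p = 0.0131). In NN chickens the call was lost without NN liver 1 (0.79, adjusted p = 0.0752), NN liver 2 (0.63, adjusted p = 0.0639), NN fat 1 (0.84, adjusted p = 0.071) or NN fat 3 (0.81, adjusted p = 0.0758), and with all 12 libraries in one fit (0.88, adjusted p = 0.0983).

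The mitoferrins import iron for haem and iron-sulphur clusters. SLC25A28 (mitoferrin 2), the form of most tissues, was at 48.4, 44.4 and 60.03 FPKM in HN livers and 52.4, 50.5 and 48.6 FPKM in NN livers, against 34.9, 32.1 and 47.6 FPKM in HN fats and 58.9, 50.96 and 42.6 FPKM in NN fats. For SLC25A28, HN over NN was 0.00 ± 0.15 in liver (adjusted p = 0.997) and -0.41 ± 0.19 in fat (adjusted p = 0.799). SLC25A28 had a liver over fat value of 0.41 ± 0.20 in HN chickens (adjusted p = 0.109) and 0.00 ± 0.13 in NN chickens (adjusted p = 0.994). In HN chickens the call appeared with liver and fat of 1 number treated as 1 bird (0.41, adjusted p = 0.0477) and without HN fat 3 (0.58, adjusted p = 0.0485). Median-ratio scaling gave calls of 1.01 in HN (adjusted p = 0.00195) and 0.66 in NN chickens (adjusted p = 0.00361), and quantile normalization one of 0.57 in HN chickens (adjusted p = 0.0448). SLC25A37 (mitoferrin 1), highest in erythroid cells in mammals, was at 2.44, 6.21 and 3.07 FPKM in HN livers and 2.43, 3.1 and 9.44 FPKM in NN livers, against 3.96, 2.82 and 3.48 FPKM in HN fats and 2.82, 2.96 and 3.39 FPKM in NN fats. NN liver 3 and HN liver 2 stood above the other livers, and neither tissue nor diet was called, except that quantile normalization gave liver over fat values of 0.86 in HN (adjusted p = 0.0374) and 1.08 in NN chickens (adjusted p = 0.0379). Those 2 livers had erythroid HBAA, a haemoglobin chain, at 168 FPKM in NN liver 3 and 86.2 FPKM in HN liver 2, inside the range of the 6 livers of 54.3 to 542 FPKM. HBAD, SLC4A1 and EPB42 also lay inside the range of the livers in both. TAL1 (3.14 FPKM) and RHAG (0.17 FPKM) were the lowest of the livers in HN liver 2 and inside the range in NN liver 3. ALAS1, the first enzyme of haem synthesis, was at 10.1 FPKM in NN liver 3, the lowest of the livers, and at 78.6 FPKM in HN liver 2, the highest. Of the 7 haem and iron-sulphur genes found, 4 were higher and 0 lower in liver in HN chickens, against 14.8% and 50.7% of all genes. In NN chickens 2 were higher and 1 lower, against 16.6% and 59.4% of genes. None was called by diet.

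Both uncoupling protein-like members were called lower in liver in NN chickens alone, a direction that turned under both other scalings. SLC25A30 was at 8.26, 24.8 and 6.1 FPKM in HN livers and 7.69, 8.2 and 8.84 FPKM in NN livers, against 11.8, 23.2 and 14.5 FPKM in HN fats and 13.03, 13.8 and 11.95 FPKM in NN fats. HN liver 2 was 2.80 times the next liver, and HN fat 2 was 1.59 times the next fat. For SLC25A30, HN over NN was 0.37 ± 0.45 in liver (adjusted p = 0.751) and 0.28 ± 0.23 in fat (adjusted p = 0.799). Without HN liver 2 the log2 fold change in liver was -0.19, and without HN fat 2 that in fat was 0.02. SLC25A30 had a liver over fat value of -0.50 ± 0.49 in HN chickens (adjusted p = 0.399) and -0.59 ± 0.11 in NN chickens (adjusted p = 0.00181). With all 12 libraries in one fit the call in NN chickens was lost (-0.59, adjusted p = 0.194). The value in HN chickens was -1.06 without HN liver 2 (adjusted p = 0.0229), while median-ratio scaling and quantile normalization gave 0.02 and 0.07 in NN chickens. SLC25A14 was at 8.13 to 10.4 FPKM in livers and 11.0 to 12.7 FPKM in fats and was called lower in liver in NN chickens alone (-0.39 ± 0.10, adjusted p = 0.00957), against -0.34 ± 0.16 in HN chickens (adjusted p = 0.0907), with an adjusted p of 0.998 for the difference. In HN chickens it was called without HN liver 2 (-0.44, adjusted p = 0.0493) and with all 12 libraries in one fit (-0.34, adjusted p = 0.021). In NN chickens median-ratio scaling gave 0.23 (adjusted p = 0.0785), and quantile normalization 0.26 (adjusted p = 0.05, just under the threshold), a call in the opposite direction. UCP3, an uncoupling protein of the same superfamily that is not named SLC25A, was at 0.18 to 0.66 FPKM in all libraries.

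The 5 members with no substrate assigned here included SLC25A34 and SLC25A47, which had the highest ratios of liver to fat means of these 5. SLC25A47, a liver-enriched carrier in mammals, was at 61.2, 23.9 and 17 FPKM in HN livers and 25.1, 36.2 and 19.3 FPKM in NN livers, against 0.52, 2.78 and 0.29 FPKM in HN fats and 0.25, 0.54 and 0.2 FPKM in NN fats. SLC25A34 was at 15.3, 10.6 and 32.5 FPKM in HN livers and 25.5, 27.8 and 20.6 FPKM in NN livers, against 0.64, 0.44 and 0.3 FPKM in HN fats and 0.4, 0.55 and 0.15 FPKM in NN fats. Every liver lay above every fat for both genes, with means 39.9-fold higher for SLC25A47 and 53.3-fold higher for SLC25A34. Without HN fat 2, left out after the values were seen, the ratio was 84.6 for SLC25A47 and 54.0 for SLC25A34, so that their order turned. SLC25A47 had a liver over fat value of 3.96 ± 0.56 in HN chickens (adjusted p = 7.1e-04) and 4.35 ± 0.23 in NN chickens (adjusted p = 2.9e-06). SLC25A34 had a liver over fat value of 3.67 ± 0.37 in HN chickens (adjusted p = 1.5e-04) and 4.23 ± 0.17 in NN chickens (adjusted p = 7.0e-07). SLC25A47 had single high birds in each tissue, HN liver 1 at 1.69 times the next liver and HN fat 2 above the other fats. The hepatocyte markers were split in HN fat 2. ALB (19.4 FPKM), FGA (0.91 FPKM), SERPINC1 (0.86 FPKM) and F2 (0.40 FPKM) were the lowest of the 6 fats. TTR (2.31 FPKM), FGB (1.23 FPKM), APOH (1.93 FPKM) and AHSG (1.29 FPKM) lay inside the range of the other fats. Their part in the SLC25A47 value was not tested. SLC25A34 and SLC25A47 were under the filter in fat, so they entered no test of HN against NN there. Both were in the interaction test, filtered on all 12 libraries, only because of their liver values. Liver over fat was tested for SLC25A34 in both diets and for SLC25A47 in NN chickens only because their liver values passed the filter.

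SLC25A43 was lower in every liver than in every fat, at 2.3, 2.1 and 2.5 FPKM in HN livers and 1.63, 2.1 and 1.81 FPKM in NN livers, against 6.78, 6.89 and 7.14 FPKM in HN fats and 7.38, 7.6 and 7.13 FPKM in NN fats. SLC25A43 had a liver over fat value of -1.27 ± 0.15 in HN chickens (adjusted p = 2.9e-04) and -1.56 ± 0.12 in NN chickens (adjusted p = 1.9e-05). SLC25A46, an outer-membrane member that acts in mitochondrial shape, was the highest of this group in fat, at 7.34, 4.62 and 5.55 FPKM in HN livers and 5.38, 7.33 and 6.37 FPKM in NN livers, against 7.55, 6.55 and 7.87 FPKM in HN fats and 7.36, 9.5 and 9.33 FPKM in NN fats. SLC25A46 had a liver over fat value of -0.30 ± 0.19 in HN chickens (adjusted p = 0.207) and -0.40 ± 0.15 in NN chickens (adjusted p = 0.0409). The call in NN chickens was lost without NN liver 1 (-0.30, adjusted p = 0.125), NN liver 3 (-0.41, adjusted p = 0.0825), NN fat 2 (-0.34, adjusted p = 0.119) or NN fat 3 (-0.36, adjusted p = 0.11), with all 12 libraries in one fit (-0.40, adjusted p = 0.0521) and without a filter (-0.40, adjusted p = 0.0615), and median-ratio scaling gave 0.19 and quantile normalization 0.30. SLC25A48 was at 1.04 to 2.65 FPKM in livers and 0.99 to 2.27 FPKM in fats, with 0.04 ± 0.23 in each diet and no call, against 0.76 in HN (adjusted p = 0.018) and 0.71 in NN chickens (adjusted p = 0.0388) with quantile normalization.

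Of the 35 members matched to RefSeq by gene identifier, 16 overlap a neighbouring gene, and whether counting used strand was not given. Among them are SLC25A6, SLC25A12, SLC25A17, SLC25A25, SLC25A34, SLC25A36, SLC25A42 and SLC25A47, whose reads may include those of the neighbour. SLC25A29 lies next to SLC25A47, and SLC25A5 next to SLC25A43. HN fat 2 was the highest fat for both SLC25A29 and SLC25A47. The highest liver was NN liver 2 for SLC25A29 and HN liver 1 for SLC25A47. SLC25A5 was called higher and SLC25A43 lower in liver in both diets. Whether reads of neighbouring genes entered these values was not tested.

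Ratios of FPKM within a library do not change when a library is multiplied by 1 factor, as in median-ratio scaling. For pairs that share a substrate and were chosen after their values were seen, the ratio of SLC25A13 to SLC25A12 was 46.5, 30.5 and 29.9 in HN livers and 18.9, 18.3 and 23.6 in NN livers, against 0.577, 0.594 and 0.657 in HN fats and 0.54, 0.48 and 0.551 in NN fats. SLC25A33 to SLC25A36 was 12.4 to 48.7 in HN livers, with 17.1 to 37.5 in NN livers, against 0.238 to 0.28 in HN fats and 0.235 to 0.295 in NN fats. SLC25A25 to SLC25A24 was 45.0 to 59.5 in HN livers, with 33.8 to 43.4 in NN livers, against 0.367 to 0.887 in HN fats and 0.505 to 0.763 in NN fats. In these 3 pairs the gene that was higher in each liver was the lower one in each fat. SLC25A6 exceeded SLC25A4 in both tissues, 4.65 to 9.80 times in livers and 26.3 to 49.3 times in fats. The iron pair SLC25A28 to SLC25A37 did not turn between tissues, with ratios above 1 in all 12 libraries, 5.15 to 21.6 in livers and 8.82 to 20.9 in fats, and it overlapped between tissues and between diets.

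Some ratios also separated the diets. SLC25A13 to SLC25A12 was higher in every HN than in every NN bird, with a mean log2 ratio of 5.12 ± 0.36 in HN livers and 4.33 ± 0.20 in NN livers, and of -0.72 ± 0.10 in HN fats and -0.94 ± 0.11 in NN fats (SD, n = 3 each). SLC25A25 to SLC25A24 had 5.68 ± 0.20 in HN livers and 5.26 ± 0.18 in NN livers. SLC25A6 to SLC25A5 ran the other way, at ratios of 3.67, 1.58 and 2.59 in HN livers and 7.23, 6.57 and 4.13 in NN livers, a mean log2 difference of -1.24. Since the pairs were chosen after their values were seen, no test is given for these differences. SLC25A33 to SLC25A36 overlapped between diets in both tissues, as did SLC25A6 to SLC25A5 in fat, at 3.44 to 6.01 in HN fats and 5.93 to 6.74 in NN fats.

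**Figure D4:**
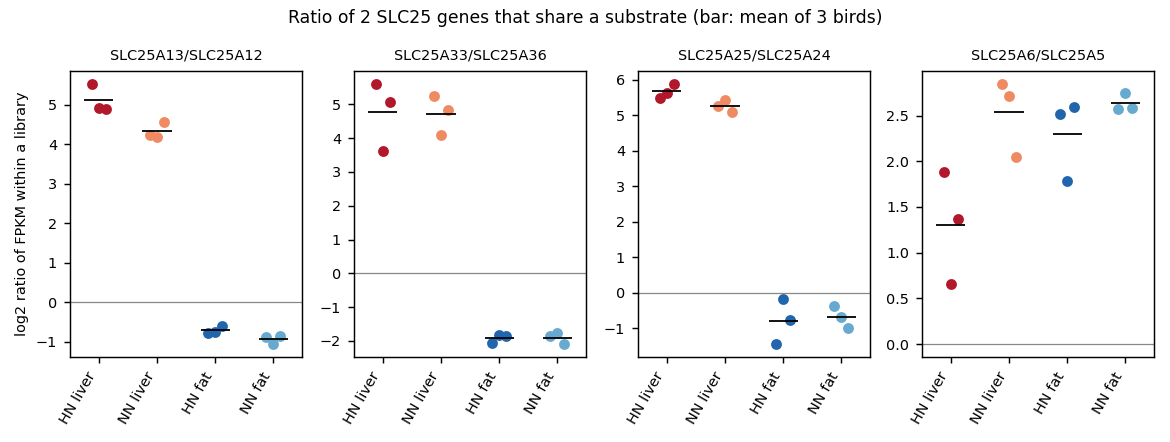
Log2 ratio of FPKM within each library for 4 pairs of SLC25 genes that share a substrate, by group, with 1 point per bird and a bar at the mean of 3 birds. The first 3 ratios are above 0 in all livers and below 0 in all fats, and SLC25A6/SLC25A5 is lower in HN than in NN livers.

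HN liver 2 and HN fat 2 each held several single high values. The 2 libraries share a replicate number, but the labels do not say that they come from 1 bird. Members that passed the filter of a tissue and were at least 1.5 times its next library were counted. They were SLC25A5, SLC25A30 and SLC25A38 in HN liver 2 (3 of 35, or 8.57%, against 3.78% of genes). In HN fat 2 they were SLC25A5, SLC25A29 and SLC25A30 (3 of 34, or 8.82%, against 3.17% of genes). SLC25A47, under the filter in fat, was at 2.78 FPKM in HN fat 2, 5.15 times the next fat. SLC25A25 was also highest in HN fat 2, at 16.7 FPKM, against 7.91 and 9.94 FPKM in the other HN fats and 9.72 to 11.3 FPKM in NN fats. HN liver 2 was at the same time the lowest liver for 16 of 35 members (45.7%, against 36.4% of genes), and HN fat 2 the lowest fat for 10 of 34 (29.4%, against 38.9% of genes). HN fat 1 was the lowest fat for more members, 12 of 34 (35.3%, against 16.2% of genes). HN fat 1 and HN fat 2 were each the highest fat for 8 members (23.5%). Of all genes, 16.9% were highest in HN fat 1 and 16.2% in HN fat 2. HN liver 2 had PPARG, a regulator of adipocyte formation, at 6.08 FPKM, against 0.68 to 1.25 FPKM in the other livers, and the highest CIDEC, a lipid droplet protein, at 251 FPKM, against 71.2 to 177 FPKM. Of the other 6 adipocyte markers, LPL was lowest in HN liver 2, at 5.47 FPKM, and 5 lay inside the range of the other livers, with FABP4 at 3.56 and ADIPOQ at 0.55 FPKM. HN fat 2 had the highest COL1A1, a fibroblast marker, at 2512 FPKM, against 555 to 1374 FPKM in the other fats. Of the other fibroblast markers, COL1A2, COL3A1 and DCN were also highest there. LUM, at 240.4 FPKM, was just below NN fat 3, at 241.6 FPKM. The skeletal muscle markers were mixed in HN fat 2. ACTA1 was highest there, at 34.6 FPKM, against 8.93 to 19.2 FPKM, as were TNNI2 (1.15 FPKM), TNNC2 (0.51 FPKM) and MYL1 (0.61 FPKM). TNNT3 was lowest there, at 1.52 FPKM, against 1.54 to 2.82 FPKM. CKM, at 1.52 FPKM, was below NN fat 2, at 1.81 FPKM, and MB was at 0.00 FPKM. Their part in the carrier values was not tested. HN liver 2 and HN fat 2 were also left out together, a choice made after the values were seen. The share of all genes called in that fit is not given here, so only members whose call changed are named. SLC25A22 (0.71, adjusted p = 0.0248), SLC25A29 (1.21, adjusted p = 0.0131), SLC25A44 (0.63, adjusted p = 0.034), SLC25A30 (-0.80, adjusted p = 0.0286) and SLC25A38 (-1.0, adjusted p = 0.00895) were then called, and SLC25A42 (0.80, adjusted p = 0.09), SLC25A16 (-0.60, adjusted p = 0.0617) and SLC25A17 (-0.47, adjusted p = 0.0727) no longer were.

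**Figure D5:**
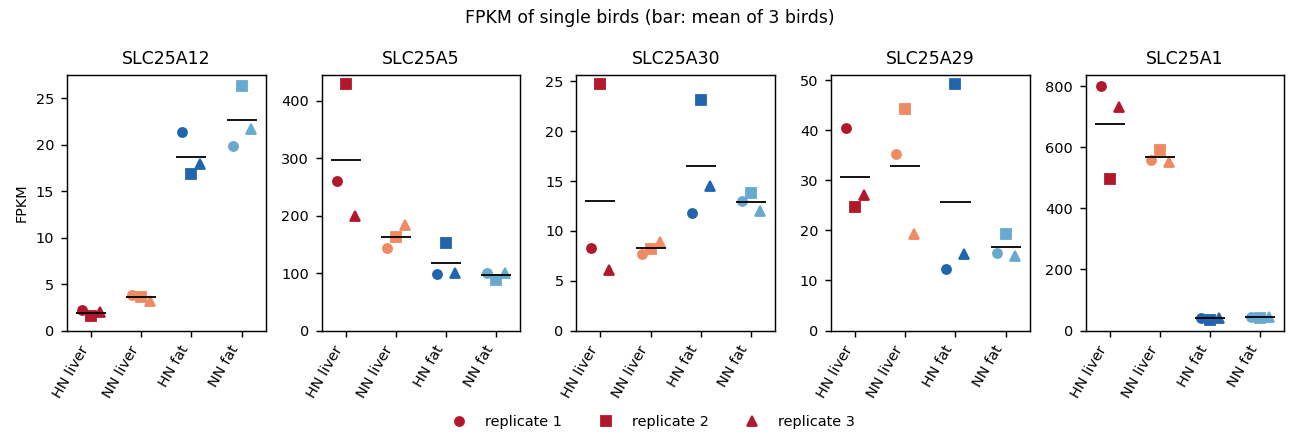
FPKM of SLC25A12, SLC25A5, SLC25A30, SLC25A29 and SLC25A1 in single birds of the 4 groups, with a bar at the mean of 3 birds and a symbol for each replicate number. Replicate 2 (squares) is the highest HN library for SLC25A5 and SLC25A30 in both tissues and for SLC25A29 in fat, and the lowest HN liver for SLC25A1.

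Other proteins of mitochondrial transport gave a setting for these values. MPC1 and MPC2, which form the pyruvate carrier, were at 534 to 901 FPKM in livers and 50.6 to 118 FPKM in fats, and both were called higher in liver in each diet. VDAC3, an outer-membrane channel, was at 6.88 to 13.5 FPKM in livers and 30.9 to 42.3 FPKM in fats, and MCU, the pore of the calcium uniporter, at 3.15 to 5.87 FPKM in livers and 13.7 to 20.1 FPKM in fats, both called lower in liver in each diet. Of the 8 such genes tested, 3 were higher and 3 lower in liver in each diet. Of all genes, 14.8% were higher and 50.7% lower in HN chickens, and 16.6% higher and 59.4% lower in NN chickens. VDAC3 was also lower in every HN than in every NN liver, at 6.88 to 8.67 FPKM in HN livers and 9.63 to 13.5 FPKM in NN livers, with a log2 fold change of -0.53 and an adjusted limma p of 0.398.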

How the data were processed

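Liver and abdominal fat RNA of 3 HN and 3 NN chickens was measured, 12 libraries in 4 groups, grouped by diet and tissue from the sample labels. The authors deposited FPKM per gene and library for 18332 genes, already divided by transcript length and library size. The submitters' processing notes name HISAT2 2.0.4, Bowtie2 2.2.5 and RSEM 1.2.12, without their roles. Genome build, strand setting and depth were not given in the sources used here, and the values keep 2 decimals, so reads were not recovered and depth-based errors could not be set. No sequences were used here.

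In all, 5 comparisons were made: HN against NN in each tissue, liver against fat in each diet, and the diet by tissue interaction. Each was fitted with limma 3.58.1 in R 4.3.3 (lmFit and eBayes with trend) on log2(FPKM + 1), keeping genes whose mean over the libraries compared reached 1 FPKM, with two-sided p-values adjusted by Benjamini-Hochberg over all genes tested and called under 0.05. The scripts were tested on simulated data. Pairs of members for within-library ratios were chosen after their values were seen. Exact permutation p-values were computed for them but are not given for that reason. Tables and plots used Python 3.11.15, numpy 2.4.6, pandas 2.3.3 and matplotlib 3.10.9. The birds of a group are separate animals as far as the study's methods say. The reported fits of liver against fat and of the interaction treated all libraries as independent and did not pair tissues by bird. Their p-values measure the spread between the libraries of a group, and the replicate block was run as an alternative.

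Members and gene lists were chosen with earlier results of these data known. Full values were given by rule for members called by diet (0 members), the 5 smallest unadjusted p by diet in each tissue, the 6 highest and 6 lowest liver over fat values among members called in both diets, the most abundant member of each substrate group in each tissue, and SLC25A1, SLC25A4, SLC25A6, SLC25A20 and SLC25A37. The values of 1 member are not reported here, although it stays in the counts, sums and fits. Others are given by range, and SLC25A29 was added after its values were seen. The partner and marker lists hold the genes found by symbol, with hepatocyte, adipocyte, erythroid, muscle, leukocyte, endothelial, fibroblast, proliferation and exocrine pancreas markers.

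Whether replicate numbers pair the libraries was checked with the correlation of deviations from group means. Between liver and fat of the same number it was 0.23, 0.40 and 0.12 for HN replicates 1 to 3 and 0.30, 0.27 and 0.23 for NN replicates 1 to 3. Of the pairs with different numbers, HN liver 3 and HN fat 1 had 0.19, and the others of liver and fat were at 0.03 or below. The replicate block therefore took same-numbered tissues as 1 bird, although the labels do not say so, and the reported fits did not. The alternatives were log2(FPKM + 0.1), no filter, median-ratio scaling, quantile normalization, the replicate block, all 12 libraries in one fit, and each library left out. Leaving out HN liver 2 and HN fat 2 together, or HN fat 2 for a ratio of means, was added after the data were seen. RefSeq names (GRCg7b) matched 35 of 37 members and were used only for neighbouring genes, since the build of the files was not named. The dwarf birds are not analysed here.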

Additional observations from a re-analysis of the deposited data

Results flagged for a closer look

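SLC25A17, the peroxisomal cofactor carrier, was set apart because every HN liver lay below every NN liver while every HN fat lay above every NN fat. It was at 5.65, 6.01 and 6.21 FPKM in HN livers, against 8.06, 6.95 and 7.75 FPKM in NN livers, and at 9.32, 8.6 and 7.88 FPKM in HN fats, against 7.47, 6.59 and 7.85 FPKM in NN fats. The diet effect in liver minus that in fat was -0.51 on the log2 scale ± 0.16 (SE), with an unadjusted limma p of 0.00965 and an adjusted p of 0.998, so the difference failed the correction over all genes. Across the alternatives that left out 1 library its value ranged from -0.57 to -0.45. Such opposite separation was found in 0.359% of the genes tested. Groups of 3 birds are too small for the outlier test used for larger groups, and single high birds are described with their values above.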

How the results depend on the processing

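No member was called by diet in either tissue or for the interaction under any alternative run. For all genes, HN against NN gave 33 calls in liver with all 12 libraries in one fit (0 in the fit reported) and 0 in fat (1 in the fit reported), and the interaction gave 4 calls with liver and fat of 1 number as a replicate block (0 without). Left out 1 at a time, libraries gave 0 to 4 genes for the interaction (2 without HN liver 1 or HN fat 3, 4 without HN liver 3), 0 to 0 in liver and 1 to 1 in fat by diet. Between tissues, members called lower in liver numbered 5 in HN chickens with quantile normalization (9 reported), and 7 with median-ratio scaling and 6 with quantile normalization in NN chickens (13 reported).

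Leaving out 1 library gave 13 to 16 members higher and 7 to 13 lower in HN chickens, and 16 to 18 higher and 11 to 13 lower in NN chickens. The number of all genes called in either direction moved as well, from 7091 to 7988 in HN and from 8774 to 9121 in NN chickens. Shares of all genes by direction are not given for these fits, so the member counts cannot be read against them. In the reported fits 14.8% of genes were higher and 50.7% lower in HN chickens, and 16.6% higher and 59.4% lower in NN chickens. The replicate block gave 15 higher and 10 lower in HN chickens (15.6% and 52.7% of all genes) and 17 and 13 in NN chickens (17% and 60.4% of all genes), adding SLC25A28 and SLC25A32 in HN. By diet, same-numbered HN and NN libraries come from different birds. Their correlations were 0.40, 0.09 and -0.04 in liver and 0.22, 0.04 and 0.23 in fat, some as high as those between tissues. The pairing of tissues by number is thus uncertain. By diet the replicate block called 0 members.

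Negative values of liver over fat turned positive under median-ratio scaling and quantile normalization, in that order, for SLC25A16 (0.06 and 0.07) and SLC25A17 (0.07 and 0.28), called in HN chickens, and for SLC25A14 (0.23 and 0.26), SLC25A16 (0.25 and 0.21), SLC25A26 (0.09 and 0.30), SLC25A30 (0.02 and 0.07) and SLC25A46 (0.19 and 0.30), called in NN chickens. Values that were not called also turned under both, for SLC25A14 (0.21 and 0.33), SLC25A26 (0.30 and 0.58), SLC25A30 (0.06 and 0.08) and SLC25A46 (0.23 and 0.46) in HN and SLC25A32 (0.25 and 0.45) in NN chickens, and under quantile normalization alone for SLC25A32 (0.33) and SLC25A38 (0.11) in HN chickens. The cause of these changes was not tested. Low members such as SLC25A15, SLC25A36 and SLC25A48 are limited by unknown depth.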
